A study of Homo sapiens with 11 samples.

Results

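Cholesterol and fatty acid synthesis under the sterol regulatory element-binding proteins (SREBPs) was followed through 35 genes, among 15148 gene symbols listed in either of the series' abundance tables. The genes were taken by name: 5 regulators (SREBF1, SREBF2, SCAP, INSIG1 and INSIG2), the sterol carrier STARD4, 19 enzymes of the sterol branch and 10 enzymes of the fatty acid branch. The choice was made with earlier results of these data known. All 35 were listed and tested in the knockdown table. Among the 32 listed for overexpression, 31 were tested, since ACAT2 stayed under the filter on low values, and 28 of those were never listed at 0. TM7SF2, SC5D and FADS2 were not analysed here for overexpression.

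All 11 libraries came from ARP1, a human cell line established from multiple myeloma, the cancer of plasma cells, and labelled IgA kappa. They were 3 libraries labelled PHF19 shRNA against 3 labelled scramble, and 2 labelled PHF19 overexpression (numbered 1 and 2) against 3 of the PCDH empty vector (numbered 3 to 5). PHF19 is a Polycomb-like protein that joins the histone-methylating complex PRC2. Per the labels, overexpression and empty vector cells were infected with lentivirus packaged in the human embryonic kidney line HEK293T and carrying the PHF19 reading frame or no insert, and PHF19-overexpressing cells were sorted, a step the labels do not state for empty vector cells. The shRNA and scramble libraries carry the same virus text and an overexpression tag, so their groups rest on their titles, and neither the delivery nor the sequence of the hairpin is given in the sources used here. Whether replicates were separate cultures is not stated either, so p-values measure only the spread between these libraries. Descriptions of overexpression samples end in F and those of empty vector samples in S, with no meaning given, so group and letter cannot be told apart.

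SREBPs are made as precursors held in the membrane of the endoplasmic reticulum. SCAP escorts them to the Golgi for cleavage when sterols are low, INSIG1 and INSIG2 hold SCAP back when sterols are high, and the released part enters the nucleus and binds sterol regulatory elements, usually beside sites for NF-Y and Sp1. The factor from SREBF2 acts mainly on genes of the sterol branch and that from SREBF1 mainly on genes of the fatty acid branch, and INSIG1 and SREBF2 are themselves SREBP targets. Plasma cells and myeloma cells draw on both branches for the membranes of their large secretory apparatus.

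RefSeq promoters (build GRCh38.p14, 250 bases before to 50 after a transcript start) were matched for 31 of the 35 genes, with 44 entries, and FDFT1, FASN, SQLE and ACAT2 had none. Each motif was searched as exact letters on both strands. The sterol regulatory element TCACNCCAC was present in 1 of the 31 genes (SREBF2). Its share was 1.44% of the genes tested in the knockdown that had an entry, and 1.13% of all 35116 promoters in the table. Exact letters miss sites that differ by a letter, so a gene without a match may still hold an element. The NF-Y letters CCAAT were present in 24 of the 31 genes (77.4%), against 34.6% of all promoters and 43.6% of the 8567 genes tested in the knockdown that had an entry. The Sp1 letters GGGCGG occurred in 29 (93.5%), against 78.5% of genes tested. The E-box CACGTG occurred in 5 genes (16.1%), against 13.1% of genes tested, and the ATF4-type letters TGATGNAA in none, against 2.39%. None of the 5 motifs contains another. A gene with several entries counted once if any entry held the letters, and such genes had more sequence to match than a single promoter.

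Promoters of 4 genes named below are printed: SREBF2 and INSIG1 among the regulators, and EBP and MVK in the sterol branch. Whether their motifs bear on the values was not tested. They run 5′ to 3′ on the gene's strand, here the plus strand for all, from chr22:41832855-41833154 (SREBF2), chr7:155297628-155297927 (INSIG1), chrX:48521558-48521857 (EBP) and chr12:109573544-109573843 (MVK). Capitals mark the sterol regulatory element and the NF-Y letters, which read ATTGG on the opposite strand.
SREBF2: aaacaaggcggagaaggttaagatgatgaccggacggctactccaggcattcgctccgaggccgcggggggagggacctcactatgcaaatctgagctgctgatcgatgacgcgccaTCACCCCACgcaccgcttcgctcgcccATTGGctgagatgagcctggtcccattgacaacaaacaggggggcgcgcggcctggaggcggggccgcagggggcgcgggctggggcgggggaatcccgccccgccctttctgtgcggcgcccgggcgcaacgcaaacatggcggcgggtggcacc
INSIG1: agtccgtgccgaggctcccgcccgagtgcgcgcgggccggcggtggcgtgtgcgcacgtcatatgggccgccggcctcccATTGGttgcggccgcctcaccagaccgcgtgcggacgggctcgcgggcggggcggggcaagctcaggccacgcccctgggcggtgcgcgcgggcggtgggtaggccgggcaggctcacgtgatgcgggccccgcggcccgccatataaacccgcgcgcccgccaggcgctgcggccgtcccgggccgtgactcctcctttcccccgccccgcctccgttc
EBP: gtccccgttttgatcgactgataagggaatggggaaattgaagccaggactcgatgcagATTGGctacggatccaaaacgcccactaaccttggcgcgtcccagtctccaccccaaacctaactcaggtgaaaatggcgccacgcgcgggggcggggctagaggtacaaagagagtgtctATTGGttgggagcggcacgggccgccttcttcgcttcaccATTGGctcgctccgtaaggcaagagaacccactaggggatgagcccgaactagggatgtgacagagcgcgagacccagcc
MVK: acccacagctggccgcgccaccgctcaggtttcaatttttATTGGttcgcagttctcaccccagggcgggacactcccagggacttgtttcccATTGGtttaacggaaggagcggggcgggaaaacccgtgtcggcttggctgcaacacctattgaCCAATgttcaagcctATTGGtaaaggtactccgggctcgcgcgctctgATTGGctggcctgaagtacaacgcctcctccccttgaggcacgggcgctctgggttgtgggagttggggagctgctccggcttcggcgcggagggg
The sterol regulatory element of SREBF2 began 133 bases before the start, followed by 1 NF-Y box. The EBP window held 3 NF-Y boxes and the MVK window 5, while INSIG1 held 1, together with an E-box 55 bases before the start.

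**Figure D1:**
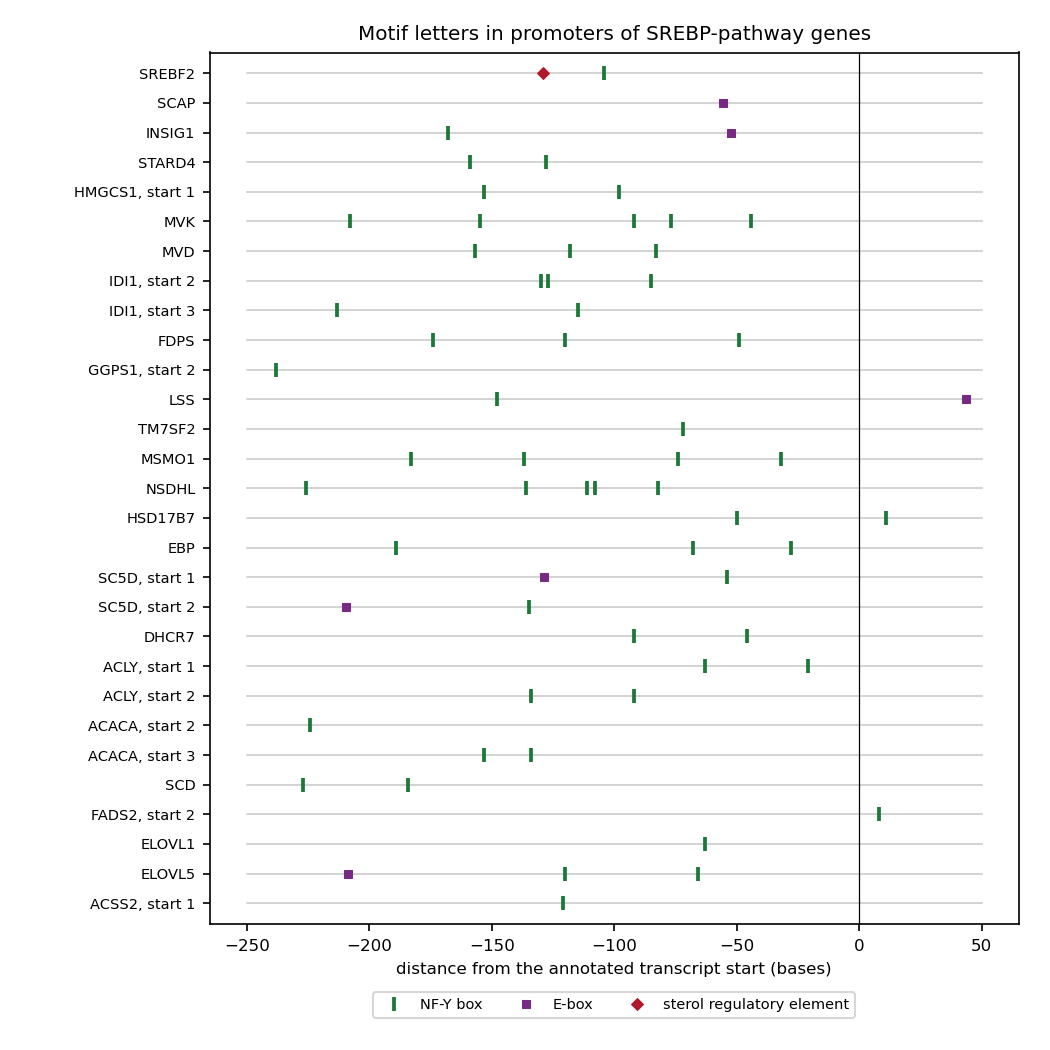
Positions of motif letters in RefSeq promoters of the SREBP-pathway genes, with the distance from the annotated transcript start in bases on the x axis and a grey line for each window. Green ticks are NF-Y boxes, purple squares E-boxes and the red diamond the sterol regulatory element of SREBF2, and genes or starts with none of these 3 motifs are not drawn.

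The tables hold values that look like abundances normalised for gene length and depth. They are recorded here as FPKM, although the headers name no unit. Listed abundances summed to 501348 to 524966 in shRNA libraries and 470294 to 526068 in scramble libraries. They summed to 498485 and 502349 with overexpression, against 425155 to 426112 with empty vector, and the part of these totals in the overexpression results was not tested. PHF19 was 95.3 ± 17.5 in shRNA libraries and 129 ± 20.3 in scramble libraries (SD, n = 3 each), a log2 difference of -0.44 that missed the threshold of 0.05 (adjusted p = 0.147) and passed it in the fit with a replicate block (adjusted p = 0.0445). PHF19 was 220 ± 9.63 with overexpression (n = 2) and 115 ± 4.12 with empty vector (n = 3), a rise of 0.93 (adjusted p = 0.0438) close to the threshold. That call was lost after quantile normalisation (adjusted p = 0.166) or median-of-ratios scaling (0.0548), without trend and robust variances (0.0781), with a filter at 5 (0.0650), with a pseudocount of 0.1 (0.0532), without genes listed at 0 (0.156), and when 1 library other than empty vector replicate 5 was left out (0.149 to 0.264). The difference was 0.75 to 0.97 under these alternatives. In bulk libraries, fewer cells that express a gene and less of its RNA per cell cannot be told apart. All 10 plasma cell markers were listed above 1 in each knockdown library. In the overexpression table TNFRSF17 and MZB1 were at 0 in empty vector replicates 3 and 4, and FKBP11 was at 0 in every library but empty vector replicate 3. Of the B cell markers, MS4A1 was at most 0.24 and listed only for the knockdown, PAX5 was at 1.56 to 2.66 over both tables, and CIITA was at 4.87 to 9.44 in the knockdown table and 14.9 to 20.6 in the overexpression table. Of the T and myeloid markers LYZ reached 6.17 in overexpression replicate 2 and at most 0.396 in the others of that table.

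With PHF19 knockdown, no SREBP-pathway gene passed the test, and the directions of the differences were evenly split. Of the 35 genes 17 were nominally higher and 18 nominally lower, with a median log2 difference of -0.02 beside 0.03 over the 10900 genes tested. The calls numbered 0 of 35 members against 5.51% of all genes. Differences are of mean log2(abundance + 1), shRNA minus scramble, with limma's 95% interval. All 35 intervals lay within 1 of 0, from a low end of -0.78 for EBP to a high end of 0.87 for TM7SF2, and 16 lay within 0.5 of 0. With the replicate number as a block, 1 member (EBP) passed, against 11.9% of genes.

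Among the regulators, 4 of 5 were nominally higher with knockdown, with a median of 0.29. SREBF2, the source of the sterol-directed factor, was at 123, 105 and 115 in shRNA libraries 1 to 3, against 86.4, 83.2 and 104 in scramble libraries 1 to 3. It was the only one of the 5 whose groups did not overlap, by less than 1 unit between shRNA 2 and scramble 3, and its difference of 0.32 (interval 0.03 to 0.62) had an adjusted p of 0.166. Groups did not overlap with shRNA higher for 19.0% of genes never at 0.

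SREBF1, the source of the fatty acid-directed factor, was at 39.3, 47.2 and 49.0 in shRNA libraries, against 26.6, 39.3 and 46.3 in scramble libraries (0.29, adjusted p = 0.374). Scramble replicate 1 lay lowest, and without it the SREBF1 difference was 0.07. SREBF1 overlaps RAI1 on the opposite strand, and whether counting used strand is not given, so its values are uncertain to that extent. The escort SCAP was at 34.3, 29.7 and 33.7 in shRNA libraries, against 27.6, 29.3 and 32.2 in scramble libraries (0.13, adjusted p = 0.553).

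The retention proteins lay on opposite sides of 0. INSIG1, the SREBP-induced form, was at 19.8, 20.4 and 17.7 in shRNA libraries, against 17.3, 23.7 and 25.8 in scramble libraries, a difference of -0.18 (adjusted p = 0.518). INSIG2 was at 4.28, 5.43 and 4.17 in shRNA libraries, against 2.85, 4.19 and 3.20 in scramble libraries, a difference of 0.35 (adjusted p = 0.238). Both pairs of groups overlapped. STARD4, which moves sterol between membranes, was at 9.86, 6.95 and 6.31 in shRNA libraries, against 5.33, 6.56 and 5.08 in scramble libraries (0.37, adjusted p = 0.241), with shRNA replicate 1 well above the rest.

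In the sterol branch 12 of 19 enzymes were nominally lower with knockdown and 7 nominally higher, with a median of -0.15. After quantile normalisation, where FDFT1 and PMVK changed sign, the split was 10 lower and 9 higher, and after median-of-ratios scaling it was 13 and 6. For 8 of the 19 (ACAT2, HMGCS1, MVK, MVD, SQLE, CYP51A1, NSDHL and EBP) every shRNA library lay below every scramble library, against 13.0% of genes never at 0. These 8 had differences of -0.49 to -0.15, and none passed the test over all genes.

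EBP, the sterol isomerase, had the largest difference of the branch. It was at 68.2, 73.6 and 78.1 in shRNA libraries, against 113, 109 and 89.4 in scramble libraries. The difference of -0.49 (interval -0.78 to -0.20) missed the threshold (adjusted p = 0.0563) and passed it with the replicate block (adjusted p = 0.0380). Every shRNA library was below every scramble library, with at least 11 units between them.

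ACAT2, the cytosolic thiolase that joins acetyl-CoA units at the start of the pathway, was at 29.2, 29.0 and 27.3 in shRNA libraries, against 45.4, 37.1 and 31.4 in scramble libraries (-0.39, adjusted p = 0.138). The shRNA values were close together and the scramble values spread widely. MVK, mevalonate kinase, was at 7.91, 8.77 and 9.52 in shRNA libraries, against 9.61, 11.6 and 11.9 in scramble libraries (-0.30, adjusted p = 0.228). The lowest scramble value and the highest shRNA value of MVK nearly touched. In the annotation ACAT2 overlaps TCP1 and SOD2, and MVK overlaps MMAB, on opposite strands.

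HMGCS1, the synthase that makes HMG-CoA, was at 12.9, 12.3 and 12.2 in shRNA libraries, against 14.0, 14.4 and 15.8 in scramble libraries (-0.22, adjusted p = 0.309). MVD, the decarboxylase that yields isopentenyl diphosphate, was at 28.5, 27.6 and 27.4 in shRNA libraries, against 30.9, 33.9 and 32.9 in scramble libraries (-0.22, adjusted p = 0.259). Both had tight shRNA values just under the scramble range. SQLE, which oxidises squalene, CYP51A1, the lanosterol demethylase, and NSDHL, a dehydrogenase of the same demethylation route, differed by -0.15, -0.20 and -0.30, with adjusted p of 0.454, 0.323 and 0.235.

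The other 11 sterol enzymes had overlapping groups and differences of -0.18 (IDI1, which isomerises isopentenyl diphosphate) to 0.25 (TM7SF2, a sterol reductase). The prenyl synthases FDPS and GGPS1 were nominally higher (0.12 and 0.22), while squalene synthase FDFT1 and the final reductase DHCR7 were at -0.04 and -0.15. Listed levels spanned from SC5D, a sterol desaturase, at 3.93 in shRNA libraries and 3.30 in scramble libraries, to FDPS at 198 in shRNA libraries and 183 in scramble libraries. FDPS, CYP51A1 and HSD17B7 have 8, 3 and 2 annotated pseudogenes, and SCD and FADS2 of the fatty acid branch 1 each, so reads may be shared with close copies. On the same strand TM7SF2 overlaps VPS51, GGPS1 overlaps TBCE, and CYP51A1 overlaps AC000120.2 and AC000120.3. The values of these genes are uncertain to that extent.

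The fatty acid branch was split evenly with knockdown, 5 of 10 nominally higher and 5 lower, with a median of -0.02. The entry enzymes ACLY (ATP citrate lyase), ACACA (acetyl-CoA carboxylase) and FASN (fatty acid synthase) and the desaturase SCD were all nominally lower, with differences of -0.28 to -0.16. The desaturases FADS1 and FADS2, which act on polyunsaturated chains, and ACSS2, which makes acetyl-CoA from acetate, were nominally higher, with differences of 0.20 to 0.30. The elongases ELOVL1, ELOVL5 and ELOVL6 lay within 0.07 of 0.

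ACACA was at 13.7, 10.2 and 11.6 in shRNA libraries, against 15.5, 13.5 and 14.5 in scramble libraries (-0.28, adjusted p = 0.265), with shRNA replicate 1 inside the scramble range. ACLY was the 1 enzyme of 10 whose groups did not overlap, a share below the 13.0% of all genes with shRNA lower, at 124, 116 and 121 in shRNA libraries, against 139, 126 and 140 in scramble libraries (-0.16, adjusted p = 0.425).

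FADS1 was at 18.4, 11.3 and 13.0 in shRNA libraries, against 11.3, 10.3 and 11.7 in scramble libraries (0.30, adjusted p = 0.323). FADS2 was at 4.30, 3.61 and 2.70 in shRNA libraries, against 2.84, 2.32 and 3.04 in scramble libraries (0.27, adjusted p = 0.381). These neighbours overlap on opposite strands, and FADS2 also overlaps FEN1 on the same strand. For both FADS1 and FADS2 the highest value was in shRNA replicate 1. Without that library the differences were 0.12 for FADS1 and 0.15 for FADS2.

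**Figure D2:**
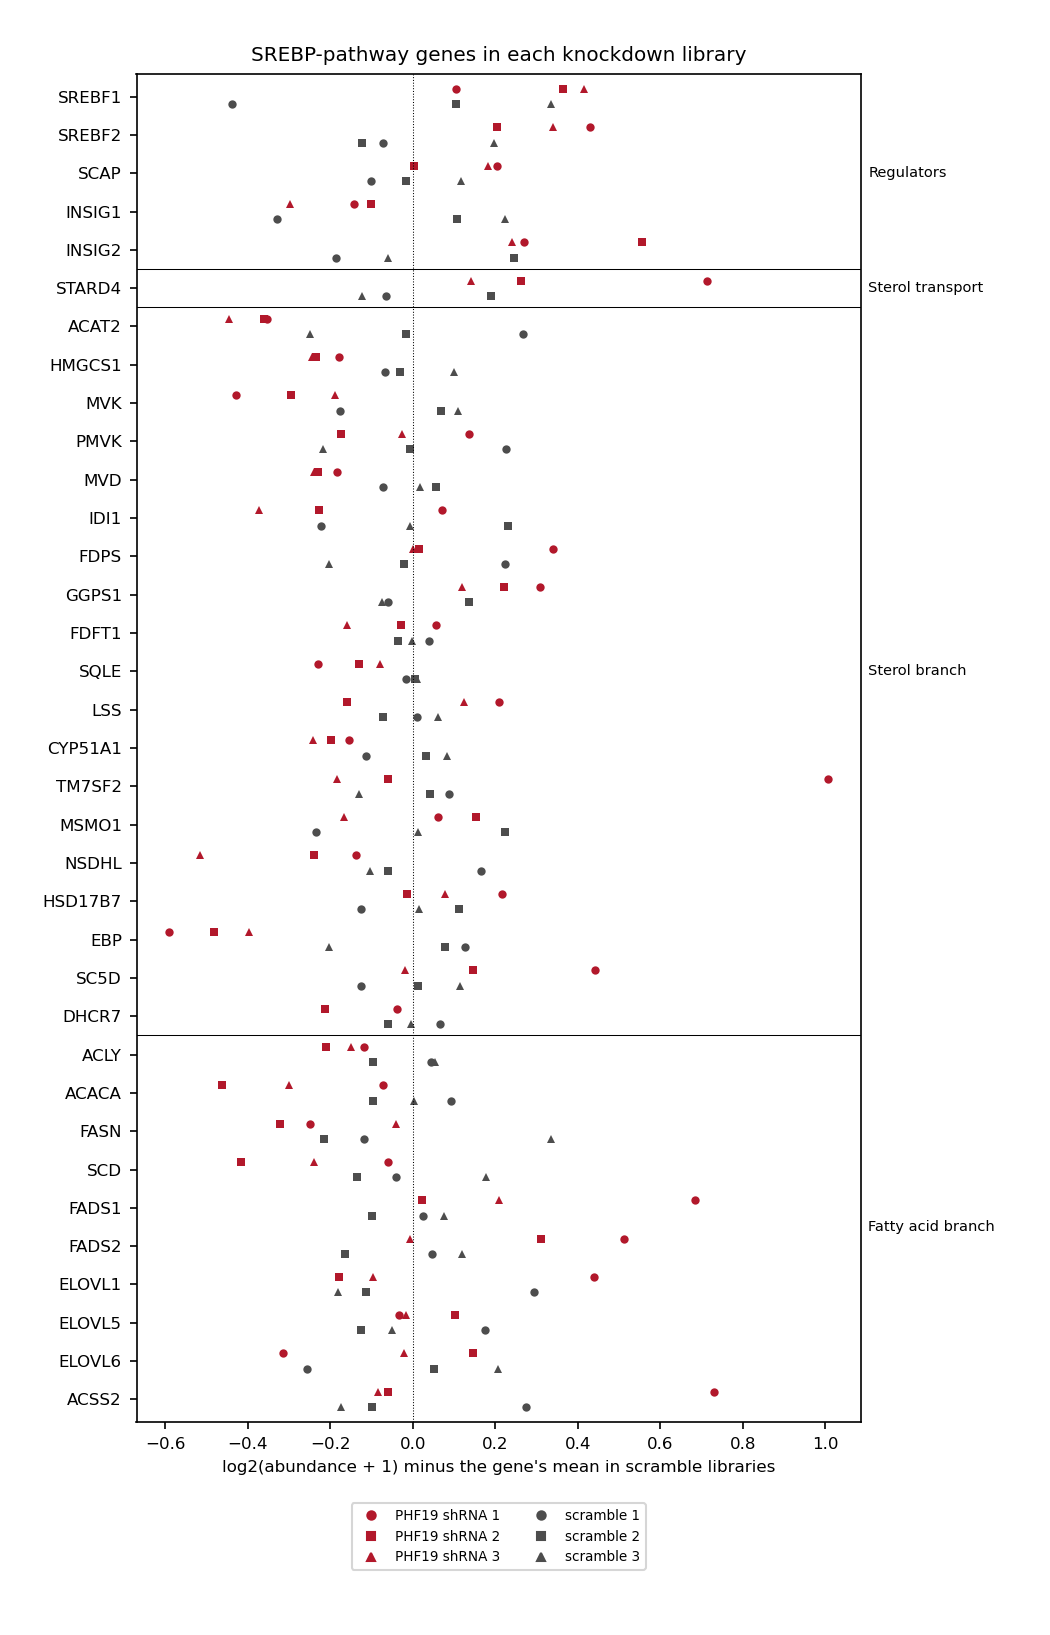
Each of the 35 genes in every knockdown library, as log2(abundance + 1) minus the gene's mean over the scramble libraries, with red symbols for PHF19 shRNA above grey symbols for scramble and shapes for the replicate numbers. EBP is the gene with the shRNA libraries farthest to the left, and shRNA replicate 1 (red circle) stands apart at 42.0 for TM7SF2.

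The shRNA replicate 1 library stood apart for these genes. It was the highest of the 3 shRNA libraries for 25 of the 35 members (71.4%), against 33.2% of all genes never at 0. TM7SF2 was at 42.0 there, against 19.5 and 17.9 in shRNA replicates 2 and 3 and 21.8, 21.1 and 18.6 in scramble libraries. The same library was lowest of the 3 for 7 of 10 plasma cell markers, against 51.1% of all genes never at 0. The markers' summed level was 837 in shRNA replicate 1, 1360 and 1363 in shRNA replicates 2 and 3, and 1421 to 1538 in scramble libraries. The part of this library's state in the results was not tested. Without it, 15 of 19 sterol enzymes and 6 of 10 fatty acid enzymes were nominally lower, with medians of -0.12 and -0.10, still with no member called. The difference of TM7SF2 was then -0.12 instead of 0.25, and that of ACSS2 -0.07 instead of 0.20.

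The authors' deposited table gives a p-value under 0.05 for 28 of the 35 members in the knockdown, against 61.2% of all listed genes. The test behind it is not stated. The share under the threshold was large for the table as a whole.

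Among 46 tested genes of 4 other lists around the pathway, 2 passed in the knockdown with shRNA higher (4.35%), a share near the 4.24% of all genes that passed in that direction, and none with shRNA lower. ERLIN2, which takes part in protein degradation at the endoplasmic reticulum, rose by 0.53 (adjusted p = 0.0430), with 11.5, 12.0 and 11.8 in shRNA libraries against 7.72, 7.36 and 8.39 in scramble libraries. FADS3, a relative of the FADS desaturases, rose by 0.63 (adjusted p = 0.0474), with 20.6, 23.2 and 24.0 in shRNA libraries against 11.2, 15.8 and 16.1 in scramble libraries. Neither gene's groups overlapped. The ERLIN2 call was lost after quantile normalisation (adjusted p = 0.0617), the FADS3 call in limma without trend and robust variances (adjusted p = 0.0601), and both with no filter on low values (adjusted p = 0.0618 for ERLIN2 and 0.0810 for FADS3). Both were also lost when any library other than shRNA replicate 1 was left out, with adjusted p of 0.0729 to 0.165 for ERLIN2 and 0.0774 to 0.133 for FADS3. Over all alternatives the differences were 0.44 to 0.59 for ERLIN2 and 0.47 to 0.72 for FADS3.

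The 46 were 10 genes of sterol synthesis and uptake, 11 of SREBP control, 7 of the LXR and efflux list and 18 of fatty acid synthesis. With the replicate block 5 of the 46 passed (10.9%), near the 11.9% of all genes. The 3 added by the block were MID1IP1, an activator of acetyl-CoA carboxylase (0.47, adjusted p = 0.0251), and, with shRNA lower, the fatty acid-binding protein gene FABP5 (-0.60, adjusted p = 0.0272) and the elongation-cycle gene HACD3 (-0.52, adjusted p = 0.0206). Without the block their adjusted p were 0.157, 0.0571 and 0.0865.

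With PHF19 overexpression, again no SREBP-pathway gene passed the test, but nearly all measured members were nominally higher. The calls numbered 0 of 31 tested members against 0.914% of the 10279 genes tested. Of the 28 members never at 0, 25 were nominally higher and 3 (ACACA, FASN and ELOVL6) nominally lower. Their median difference, overexpression minus empty vector, was 0.27 beside 0.07 over genes never at 0, of which 59.4% were nominally higher.

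The scale between libraries bore on these directions. The median over all tested genes was 0.09 as deposited and -0.04 after quantile normalisation, where HMGCS1 and MVD also turned nominally lower and the split was 23 to 5. Relative to the all-gene median, 23 of the 28 lay above and 5 (ACACA, ELOVL6, FASN, HMGCS1 and MVD) below, as deposited and after quantile or median-of-ratios scaling. Intervals were wide, and those of 1 member lay within 0.5 of 0.

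Among the regulators the 4 never at 0 were all nominally higher with overexpression, with a median of 0.40. SREBF2 was at 94.8 and 94.4 with overexpression, against 47.0, 53.9 and 75.3 with empty vector replicates 3 to 5. Both overexpression values lay above the empty vector range, as they did with overexpression higher for 23.3% of genes never at 0. The difference was 0.71 (interval 0.09 to 1.33, adjusted p = 0.393).

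SCAP was at 27.5 and 31.4 with overexpression, against 22.0, 23.4 and 22.8 with empty vector (0.36, adjusted p = 0.388), also without overlap. SREBF1 was listed at 20.4 and 17.8 with overexpression, and at 11.5, 0 and 31.2 with empty vector. The 0 in empty vector replicate 4 leaves SREBF1 without a fold.

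Empty vector replicate 5 stood apart for INSIG1, INSIG2 and STARD4. Being the highest empty vector library was not particular to members, at 46.4% of the 28 against 44.2% of genes never at 0. It was the lowest for 25.0% of members and 41.2% of those genes. INSIG1 was at 17.2 and 15.1 with overexpression, against 7.24, 8.40 and 24.6 with empty vector (0.45, adjusted p = 0.791). INSIG2 was at 9.90 and 9.57 with overexpression, against 4.95, 6.69 and 12.3 with empty vector (0.34, adjusted p = 0.760). STARD4 was at 9.15 and 7.61 with overexpression, against 5.35, 5.17 and 11.9 with empty vector (0.23, adjusted p = 0.856). For all 3 genes the overexpression libraries lay between empty vector replicate 5 and the other empty vector libraries.

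The mean log2 level of the 4 regulators, which include INSIG1 and INSIG2, followed the same order: 4.76 and 4.75 with overexpression, against 3.93, 4.14 and 4.81 with empty vector. SREBF2 and SCAP alone did not, since empty vector replicate 5 lay below both overexpression libraries for each. The summed level of the plasma cell markers was 1717 and 1763 with overexpression, against 1035, 1097 and 1859 with empty vector, and its part in the result was not tested. These sums include listed zeros, among them TNFRSF17 and MZB1 in empty vector replicates 3 and 4. Without empty vector replicate 5 the median of the regulators was 0.78, with differences of 0.90 for SREBF2 and 0.96 for INSIG1. Still no member passed then, against 3.48% of genes, and the smallest adjusted p among them was 0.0514 (SREBF2).

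All 15 sterol enzymes never at 0 were nominally higher with overexpression, with a median of 0.28 as deposited, and 13 of 15 were after quantile normalisation. For 8 of them (MVK, FDPS, GGPS1, SQLE, CYP51A1, MSMO1, EBP and DHCR7) both overexpression libraries lay above every empty vector library, a pattern seen in 23.3% of genes never at 0. This count used values as deposited and was not repeated after scaling. In the mean log2 level of the 15 enzymes the libraries were at 5.04 and 4.95 with overexpression, against 4.55, 4.72 and 4.71 with empty vector. Unlike the regulator mean, the branch mean did not set empty vector replicate 5 apart.

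HSD17B7, a ketosteroid reductase, had the largest difference of the branch at 1.02 (interval -0.67 to 2.72, adjusted p = 0.579), and it rested on 1 library. It was at 33.3 and 8.48 with overexpression, against 6.68, 6.70 and 10.8 with empty vector. Without overexpression replicate 1 the difference was 0.10, and without replicate 2 it was 1.95. MVK was at 6.89 and 8.60 with overexpression, against 3.79, 5.12 and 5.06 with empty vector (0.63, interval 0.11 to 1.15, adjusted p = 0.382).

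MSMO1, the methylsterol oxidase, was at 32.6 and 33.2 with overexpression, against 19.2, 20.9 and 29.6 with empty vector (0.51, adjusted p = 0.478). The remaining enzymes never at 0 had differences of 0.08 (HMGCS1 and MVD) to 0.39 (GGPS1). EBP, the gene with the largest knockdown difference, was at 67.8 and 76.2 with overexpression, against 66.8, 63.8 and 52.8 with empty vector (0.24, adjusted p = 0.586).

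Listed zeros broke the record of 2 sterol enzymes. PMVK, phosphomevalonate kinase, was listed at 190 and 0 with overexpression, and at 0, 127 and 113 with empty vector. ACAT2 was at 26.6 and 0 with overexpression, and at 0 in all 3 empty vector libraries. In the knockdown table, normalised separately, both genes were listed well above 0 in each library, so these zeros are given as listed and without a fold.

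The fatty acid branch was more mixed with overexpression, 5 of 8 enzymes never at 0 nominally higher, with a median of 0.18, or 0.02 after quantile normalisation. ACSS2 was at 5.43 and 5.62 with overexpression, against 2.69, 3.86 and 5.77 with empty vector (0.40, adjusted p = 0.646). FADS1 was at 12.0 and 13.3 with overexpression, against 8.85, 8.70 and 12.1 with empty vector (0.34, adjusted p = 0.554). In both genes empty vector replicate 5 overlapped the overexpression values. ELOVL1 was listed at 49.0 and 52.6 with overexpression, and at 0, 36.3 and 37.7 with empty vector.

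The 3 members nominally lower were all in this branch. FASN was at 26.5 and 26.3 with overexpression, against 36.3, 42.8 and 21.7 with empty vector (-0.28, adjusted p = 0.761), and the difference was -0.56 without empty vector replicate 5 (adjusted p = 0.0896) and -0.09 without replicate 4 (adjusted p = 0.974). ACACA was at 6.70 and 7.51 with overexpression, against 8.84, 9.09 and 7.49 with empty vector (-0.22, adjusted p = 0.598). ELOVL6, which extends palmitate, was at 19.2 and 18.1 with overexpression, against 20.9, 19.7 and 22.2 with empty vector (-0.16, adjusted p = 0.616), the only member with overexpression lower and no overlap, against 12.0% of genes. ACLY, by contrast, was at 131 and 134 with overexpression, against 121, 120 and 101 with empty vector (0.22, adjusted p = 0.562).

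**Figure D3:**
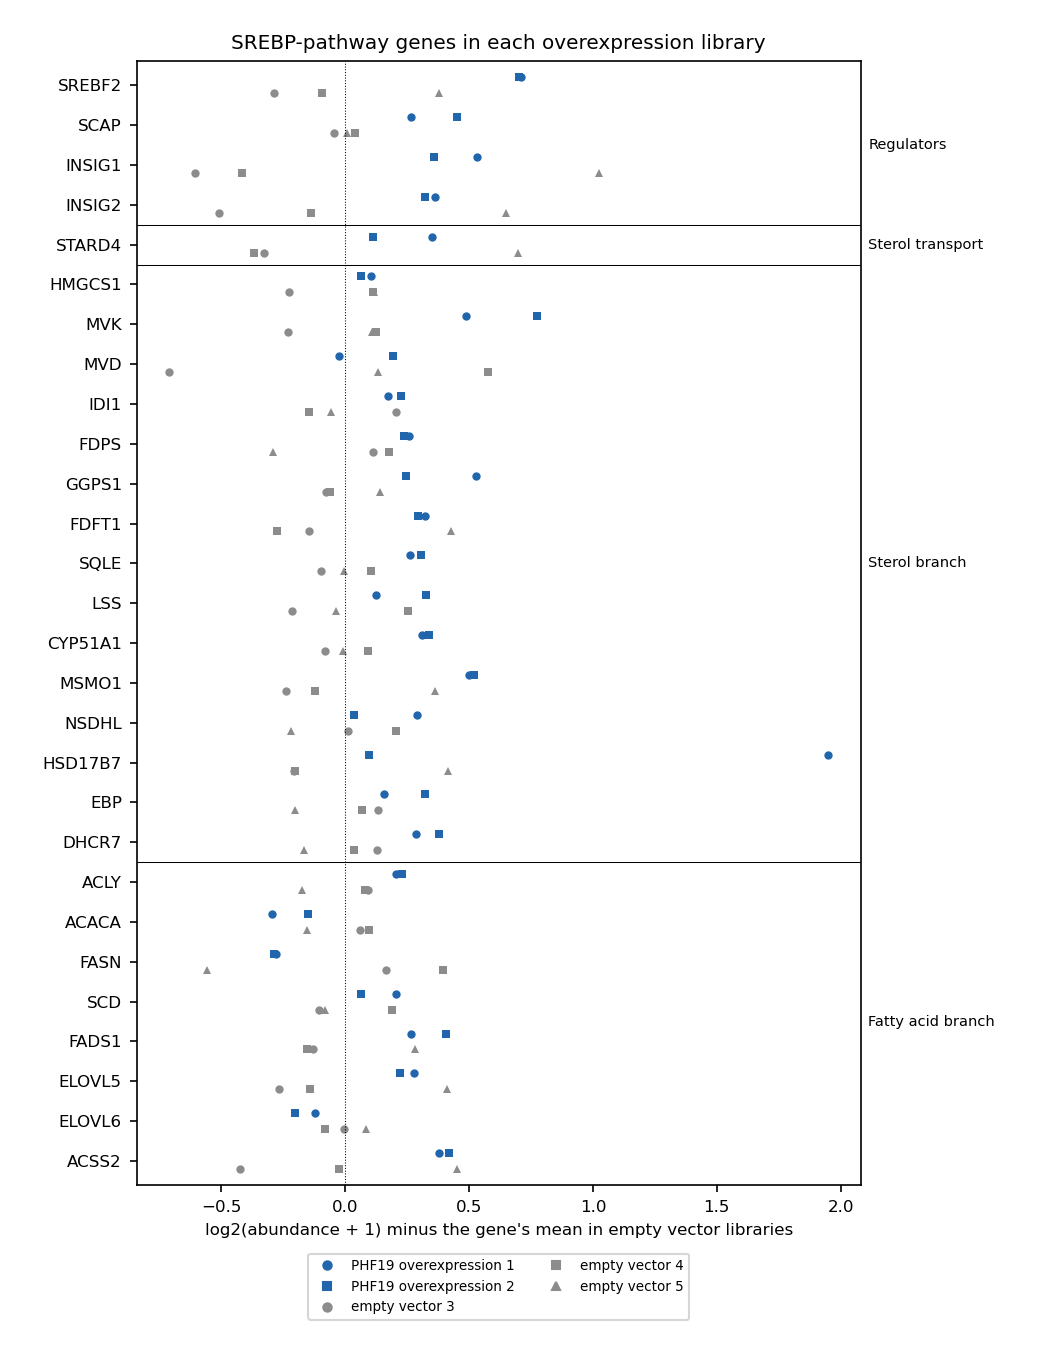
The 28 genes never listed at 0 in every overexpression-table library, as log2(abundance + 1) minus the gene's mean over the empty vector libraries, with blue symbols for PHF19 overexpression above grey symbols for empty vector and shapes for the replicate numbers. Empty vector replicate 5 (grey triangle) lies to the right of overexpression for INSIG1, INSIG2 and STARD4, and overexpression replicate 1 stands apart at 33.3 for HSD17B7.

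The authors' deposited table gives a p-value under 0.05 for 3 of the 32 members listed for overexpression, against 12.9% of listed genes: 0.0110 for SREBF2, 0.0247 for MVK and 0.0185 for ACACA. Of 43 tested genes of the other pathway lists none passed, against 0.914% of all genes. Without empty vector replicate 5 the mitochondrial citrate carrier gene SLC25A1 passed (0.87, adjusted p = 0.0315), 1 of 42 tested (2.38%) against 3.48% of genes.

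The 2 comparisons share no libraries, and the branch medians are set side by side as a description. The sterol branch had medians of -0.15 with knockdown and 0.28 with overexpression. The fatty acid branch had medians of -0.02 with knockdown and 0.18 with overexpression. The knockdown medians of the branches came close to each other without shRNA replicate 1, at -0.12 for the sterol branch and -0.10 for the fatty acid branch. With a filter at 5 they were -0.15 and -0.11, but over fewer genes. That filter left out SC5D of the sterol branch and FADS2 and ACSS2 of the fatty acid branch, all nominally higher with knockdown. The regulators had medians of 0.29 with knockdown and 0.40 with overexpression, and SREBF2 was nominally higher in both. No test was made of the difference between branches, and the comparisons come from tables normalised separately.

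Among the 28 members never at 0 in both tables, 8 (28.6%) had all shRNA libraries below all scramble libraries, against 13.1% of the 7926 genes never at 0 in both tables. There were 11 members (39.3%) with both overexpression libraries above all empty vector libraries, against 24.1% of the same genes. These counts used values as deposited and were not repeated after scaling. Listed abundances summed to 498485 and 502349 with overexpression, against 425155 to 426112 with empty vector. The part of these totals in the counts was not tested. The 5 in both lists (MVK, SQLE, CYP51A1, EBP and ACLY) were 62.5% of the knockdown list and 45.5% of the overexpression list. Over all 7926 genes the shared genes numbered 171, which were 16.4% of the genes lower with knockdown and 8.95% of those higher with overexpression. None of the 5 passed the test over all genes in either comparison without a block. The members were chosen with earlier results of these data known, so these shares are a description and not a test. Genes of a shared pathway are also not replicates of each other.

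**Figure D4:**
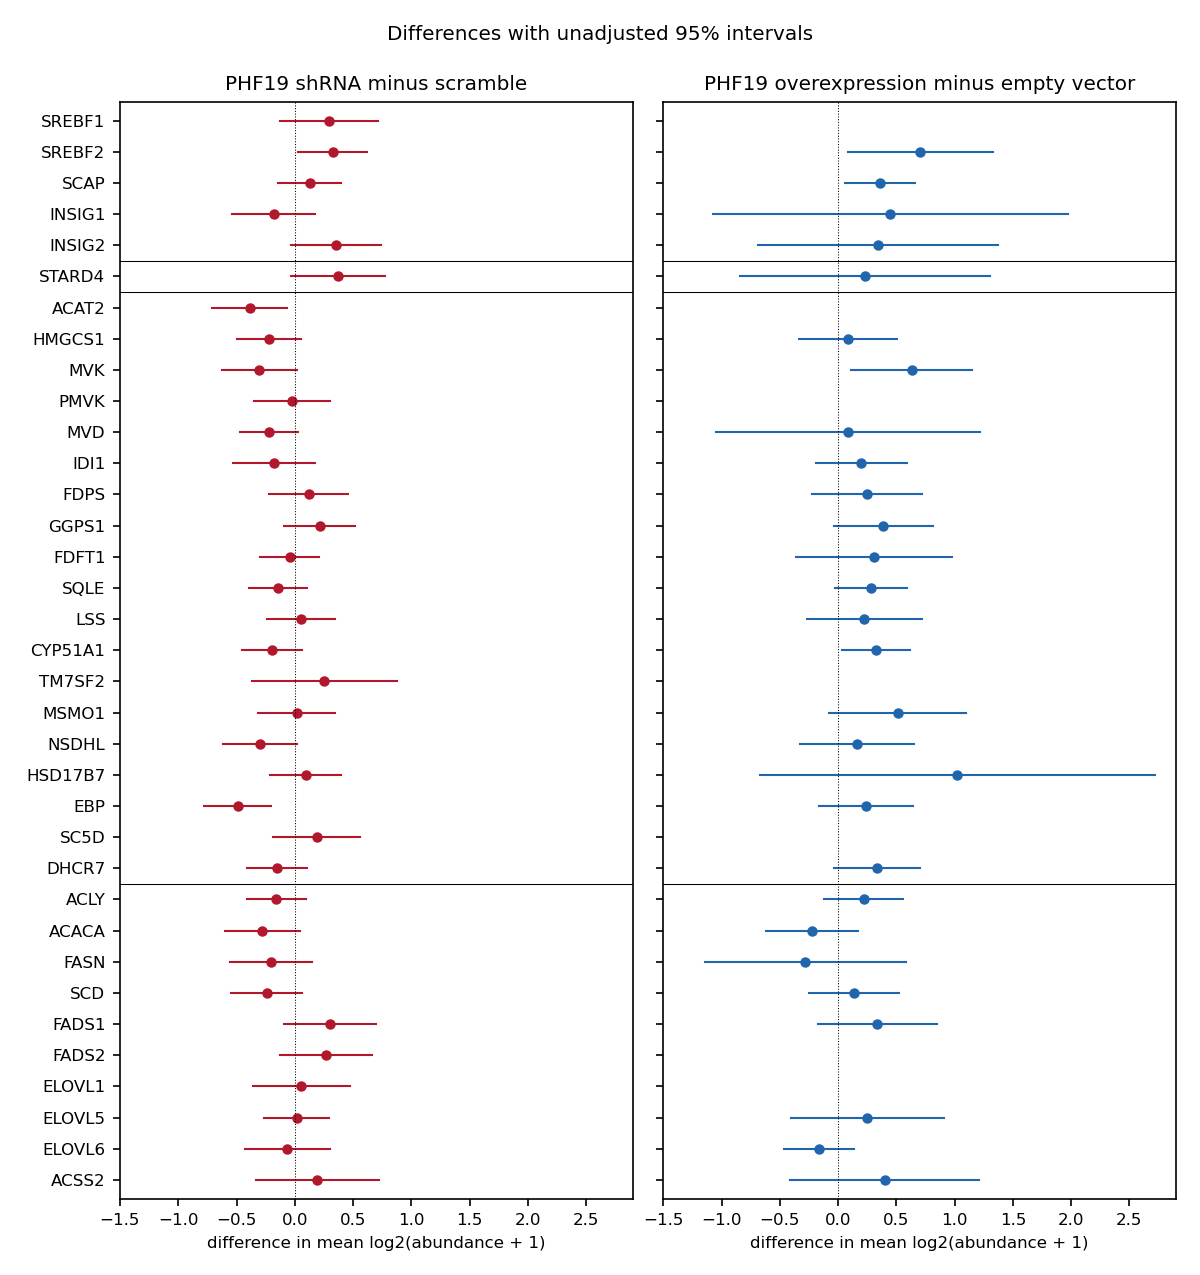
Differences of mean log2(abundance + 1) for the 35 genes, with PHF19 shRNA minus scramble on the left and PHF19 overexpression minus empty vector on the right. Points are estimates, bars are limma's unadjusted 95% intervals, and genes listed at 0 or not listed have no point. On the left EBP (-0.49) lies farthest below 0, and on the right the interval of HSD17B7 (-0.67 to 2.72) is the widest.

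**Figure D5:**
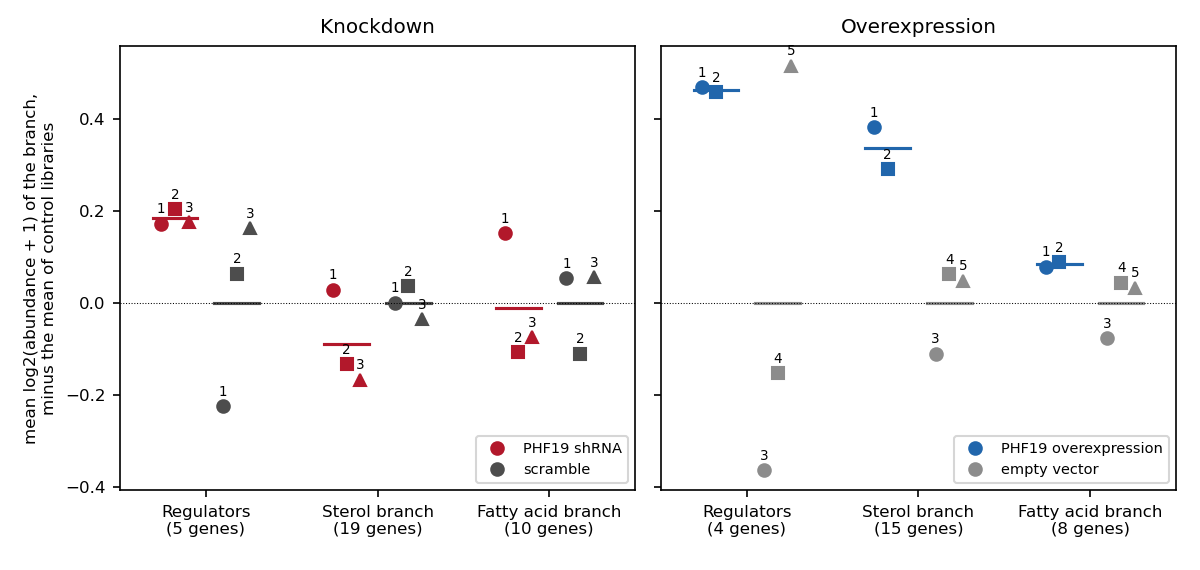
Mean log2(abundance + 1) of each branch in every library minus the mean of the control libraries, with shRNA left of scramble and overexpression left of empty vector. Symbols are libraries with their replicate numbers and short bars are group means. The regulator mean of empty vector replicate 5 lies above both overexpression libraries, and shRNA replicate 1 lies above the other shRNA libraries for both enzyme branches.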

How the data were processed

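Abundances recorded here as FPKM were deposited by the authors in 2 tables, which also hold a p-value per gene, per the file headers. Reads were aligned to hg19 with TopHat (version not given), per the submitters' processing notes. The sources used here give no quantifier, annotation, strand setting or read depth, so no counting error was computed. Each comparison was made within its own table on log2(FPKM + 1), for genes at 1 or more in at least 3 (knockdown) or 2 (overexpression) libraries. limma 3.58.1 (R 4.3.3, trend, robust variances, two-sided) was used and p-values were adjusted over all tested genes by the Benjamini-Hochberg method, after the fit was tested on simulated data. Plots and tables used Python 3.11.15, pandas 2.3.3, numpy 2.4.6 and matplotlib 3.10.9. Levels are means ± SD.

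Members and lists were chosen with earlier results of these data known. Library values are given for the 5 regulators, STARD4, called members, the 3 members of each branch with the largest difference and exceptions in direction. Values of HMGCS1, MVD, ACLY, TM7SF2, MSMO1 and EBP with overexpression were added after values were seen.

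Deviations from group means correlated at 0.341, 0.270 and 0.273 between shRNA and scramble libraries of equal number, and at -0.277 to 0.0936 otherwise. The numbers were therefore treated as pairing in the fit with the replicate block only, from the data alone. The main knockdown fit was unpaired, so its intervals and adjusted p leave this pairing out. 24 symbols turned into dates stayed unmatched. Tried as alternatives were a plain limma fit (no trend, no robust variances), quantile and median-of-ratios scaling, other filters and pseudocounts, each library left out, the replicate block, and overexpression without genes listed at 0. Some genes of the wider pathway lists are not reported here by name.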

Additional observations from a re-analysis of the deposited data

How the results depend on the processing

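Read depth is unknown, so low abundances carry no counting error. A difference changed sign under at least 1 alternative for 9 of 35 members in the knockdown (ACSS2, ELOVL1, ELOVL5, ELOVL6, FDFT1, LSS, MSMO1, PMVK and TM7SF2) and for HMGCS1 and MVD among 28 members in the overexpression. The other 26 members of each comparison kept their sign. For EBP and PHF19 in the knockdown a call was gained with the replicate block.

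In the knockdown all-gene fit, 462 higher calls became 219 with no filter, 894 with the replicate block and 50 to 500 with a library left out. The 139 lower calls became 87 without trend and robust variances, 50 with no filter, 401 with the replicate block and 1 to 129 with a library left out. Member calls stayed at 0 except 1 lower (EBP) with the replicate block. With a library left out, the regulator median ranged from 0.079 (without scramble replicate 1) to 0.325 and the sterol median from -0.141 to -0.062 (nearest 0 without scramble replicate 2).

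In the overexpression fit, 63 higher calls became 17 with a filter at 5, 33 with a pseudocount of 0.1, 0 without genes listed at 0 (where 1201 genes had an unadjusted p under 0.05) and 50 to 258 with a library left out, highest without empty vector replicate 5. The 31 lower calls became 19 with a filter at 5, 0 without genes listed at 0, and 30 to 98 with a library left out. Member calls were 0 to 1, the 1 being ACAT2 without overexpression replicate 2, against empty vector libraries all listed at 0. The regulator median was 0.24 to 0.78 with a library left out, highest without empty vector replicate 5. The sterol median was 0.14 after quantile normalisation. The fatty acid median was 0.016 after quantile normalisation, 0.10 after median-of-ratios scaling and 0.10 to 0.20 with a library left out. Except as given, causes were not tested. No paired analysis was possible for overexpression because its groups share no replicate number.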
